A study of Mus musculus with 8 samples.

Results

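The 8 genes described here act in the thyroid hormone pathway or are known to respond to the hormone: Iyd, Dio2 and Crym, the receptor genes Thra and Thrb, and Hr, Klf9 and Nrgn. They were found by symbol in the authors' deposited comparison tables of mouse cerebellum, and 7 of the 8 were among the 11763 genes listed in at least 1 table. Crym was in no table, so it was either not tested or not called, and no value can be given for it. Polyadenylated RNA was sequenced from 4 groups of C57Bl/6 mice at postnatal day 40, labelled male: Snf2h cKO-Nestin runners, Snf2h cKO-Nestin sedentary mice, control runners and control sedentary mice. The conditional knockout (cKO) removes Snf2h (gene symbol Smarca5), the ATPase of ISWI chromatin remodelling complexes, in cells where the Nestin driver is active, which include the progenitors of neurons and glia. The labels give neither the alleles of the control mice nor how the runners ran. Each group had 2 libraries, titled Lane A and Lane B in every group and each described as a pool of 3 cerebella. The deposited tables give 1 FPKM per group (fragments scaled to transcript length and to library size), so there is no spread between libraries to show, and depth is unknown. Whether Lane A and Lane B of a group are separate pools or lanes of 1 pool is not stated, so the deposited p-values may measure technical spread.

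Thyroid hormone enters the brain in part as thyroxine, which the deiodinase encoded by Dio2, mainly in glia, turns into the active form, triiodothyronine. Receptors encoded by Thra and Thrb sit on DNA with or without hormone, and recruit corepressors in its absence and coactivators in its presence. The developing cerebellum is a classic target: in rodents lacking the hormone, granule cell migration and Purkinje cell dendrites are delayed. Hr and Klf9 are among the best known genes raised by the hormone in rodent brain, and Nrgn is raised by it in rodent forebrain.

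All genes lie on mm10, the build that the submitters' processing notes name, and positions are from the GENCODE M21 annotation of that build. Thra spans chr11:98740638-98769006 (plus strand), Thrb chr14:17660261-18038090 (plus), Hr chr14:70552212-70573548 (plus), Klf9 chr19:23141226-23168134 (plus), Dio2 chr12:90724552-90738438 (minus), Nrgn chr9:37544492-37552904 (minus), Iyd chr10:3540240-3554877 (plus) and Crym chr7:120186380-120202111 (minus). All are annotated as protein-coding. Exons of Thra overlap those of the clock gene Nr1d1 on the opposite strand over 263 bases, 5.70% of the exonic bases of Thra. Strand-specific counting is not stated, so reads there cannot be told apart. Dio2 shares 100 exonic bases, 1.72% of its own, with the noncoding gene Gm26512 on the opposite strand.

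The promoters of 4 members are printed because they show what lies at RefSeq start sites of the genes whose levels are given below. These need not match the GENCODE positions above. The Dio2 sequence lies wholly upstream of the Dio2 span given there, and the Thrb sequence wholly inside the Thrb span. Dio2 and Klf9 were higher in runners in both genotypes, Nrgn crossed between conditions, and Thrb was higher in the cKO. The windows run from 250 bases before to 50 after a start site in RefSeq (GRCm38.p6), which held 6 windows for 5 of the 8 members (Dio2, Iyd, Klf9, Nrgn and, with 2 start sites, Thrb). Each is written 5′ to 3′ on the strand of its gene, and capitals mark a motif match on either strand.
Dio2, chr12:90738989-90739288, minus strand: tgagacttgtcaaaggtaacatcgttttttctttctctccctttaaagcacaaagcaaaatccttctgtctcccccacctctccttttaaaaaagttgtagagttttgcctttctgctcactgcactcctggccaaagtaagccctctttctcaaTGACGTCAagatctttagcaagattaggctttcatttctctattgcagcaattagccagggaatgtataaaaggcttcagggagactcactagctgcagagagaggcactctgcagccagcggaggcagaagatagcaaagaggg
Klf9, chr19:23140976-23141275, plus strand: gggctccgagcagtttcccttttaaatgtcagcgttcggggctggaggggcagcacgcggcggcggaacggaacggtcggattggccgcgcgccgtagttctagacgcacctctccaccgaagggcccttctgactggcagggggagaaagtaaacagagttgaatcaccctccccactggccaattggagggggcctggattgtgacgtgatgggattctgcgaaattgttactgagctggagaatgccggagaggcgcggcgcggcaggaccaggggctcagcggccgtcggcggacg
Nrgn, chr9:37552696-37552995, minus strand: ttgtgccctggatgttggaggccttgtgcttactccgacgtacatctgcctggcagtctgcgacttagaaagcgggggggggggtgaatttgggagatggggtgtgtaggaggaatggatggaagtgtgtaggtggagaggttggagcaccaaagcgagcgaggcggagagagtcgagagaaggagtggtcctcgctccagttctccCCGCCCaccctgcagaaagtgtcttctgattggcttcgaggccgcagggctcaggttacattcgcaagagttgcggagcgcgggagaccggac
Thrb, first start site, chr14:17660710-17661009, plus strand: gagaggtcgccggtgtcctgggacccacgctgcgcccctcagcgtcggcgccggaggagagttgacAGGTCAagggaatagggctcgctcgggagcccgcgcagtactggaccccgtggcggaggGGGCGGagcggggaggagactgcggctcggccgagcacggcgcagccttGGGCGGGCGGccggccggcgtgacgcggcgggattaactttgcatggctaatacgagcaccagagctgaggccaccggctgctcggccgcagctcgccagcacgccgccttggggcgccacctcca

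A search for 6 motifs gave few matches in these windows, and a match is only a description of the letters. The motif AGGTCA, which is what a thyroid hormone receptor monomer binds, stood in the first Thrb window, and 16.3% of all 32851 windows hold it. The direct repeat of that motif with a spacing of 4 bases, the classic receptor element, matched none of the 6 windows and 0.0152% of all windows. TGACGTCA, the cyclic AMP response element, stood in the Dio2 window and in 1.79% of all windows. CACGTG, the E-box bound by clock and other factors, stood in the second Thrb window and in 7.15% of all. GGGCGG, the GC box, stood in the Nrgn window and in the first Thrb window, where matches overlap, and in 35.7% of all. The glucocorticoid receptor palindrome matched none of the 6 windows and 0.00913% of all windows. The Klf9 and Iyd windows held none of the 6 motifs.

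Some facts of the 4 groups bear on every value below. Smarca5 had 5.38 FPKM in cKO runners against 12.96 in control runners, and 4.94 in cKO sedentary mice against 12.6 in control sedentary mice. Granule neuron markers were well detected in each group, with a summed 526 FPKM in cKO runners, 333 in cKO sedentary mice, 1499 in control runners and 1399 in control sedentary mice (7 genes). Choroid plexus markers were low in 1 group: 628 FPKM in cKO runners, 662 in cKO sedentary mice, 532 in control runners and 80.7 in control sedentary mice (4 genes). Ttr makes up most of each of these sums, with 77.7 FPKM in control sedentary mice. Hindbrain and midbrain neuron markers were high in the cKO, at 96.4 FPKM in cKO runners, 76.9 in cKO sedentary mice, 8.86 in control runners and 18.4 in control sedentary mice (9 genes). Sex-linked transcripts went against the label male. Xist, expressed from the inactive X of females, had 25.8, 18.1, 57.6 and 34.8 FPKM in cKO runners, cKO sedentary mice, control runners and control sedentary mice. The Y-linked Eif2s3y had 5.56 FPKM in cKO runners, 10.4 in cKO sedentary mice, 0.0334 in control runners and 7.43 in control sedentary mice. The part of sex and of adjoining tissue in the members' values was not tested. In bulk tissue, fewer cells of a type and less RNA per cell cannot be told apart.

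**Figure D1:**
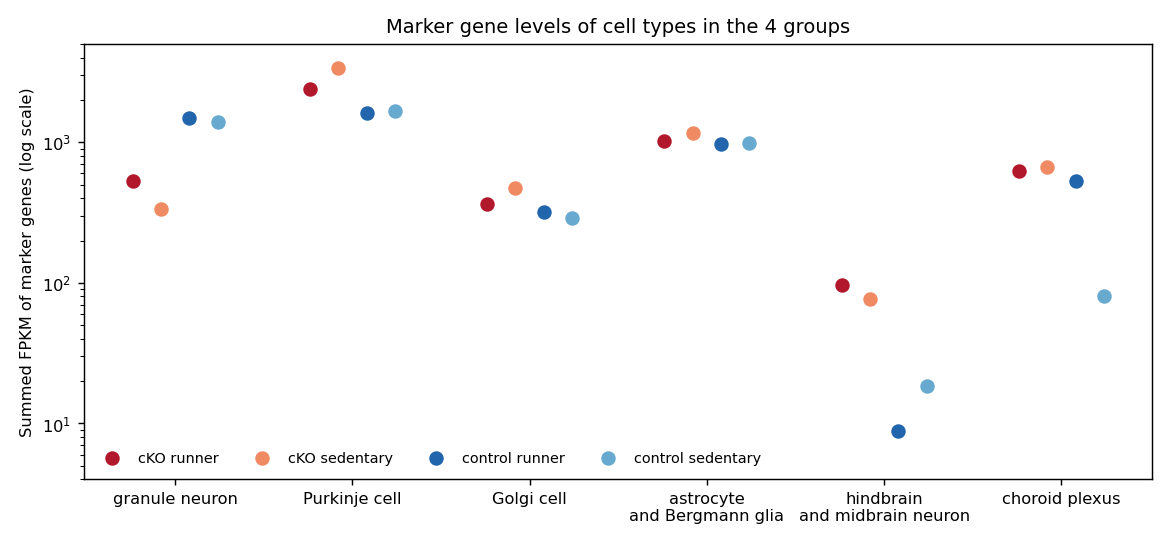
Summed FPKM of marker genes of 6 cell types (log axis) in cKO runners, cKO sedentary mice, control runners and control sedentary mice, 1 deposited value per gene and group, over the genes with a value in all 4 groups. Granule neuron markers are low and hindbrain and midbrain markers high in both cKO groups. Choroid plexus markers, whose sum is mostly Ttr, are low in control sedentary mice at 80.7 FPKM.

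A gene was called at a deposited Cuffdiff q below 0.05, and the tables list little else, so a gene missing from a table was not tested or not called. The smallest q in the tables was 0.000167, and it belonged to every member call except that of Nrgn with running in the control. Calls of other genes printed below without a q had this value or a larger q under 0.05. In the genotype comparison of sedentary mice (cKO over control) 6 of the 8 members were called, 2 higher and 4 lower, and of all listed genes 82.7% were called, 38.4% higher and 44.2% lower. In that of runners 6 members were called, 3 higher and 3 lower, with 68.4% of all genes called, 32.2% higher and 36.2% lower. Both shares of members are near the background. In the running comparison of the cKO (runner over sedentary) 5 members were called, all higher, with 31.6% of all genes called, 17.7% higher and 13.8% lower. In that of the control 5 members were called, 4 higher and 1 lower, with 40.6% of all genes called, 22.1% higher and 18.4% lower. The comparisons within a genotype or within an activity share groups with each other, so these counts are not independent. The running comparisons of the cKO and of the control share no library: Thra, Hr, Klf9 and Dio2 were higher in both, as were 6.32% of all genes. Xist was also higher and Eif2s3y lower in runners of both genotypes, and the part of sex in these changes was not tested.

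The scale between groups matters for small changes. Over the 6313 genes at 1 FPKM or more in every group, the median log2 fold change was -0.18 for cKO over control in sedentary mice and -0.16 in runners. With running it was 0.05 in the cKO and 0.01 in the control. Genotype changes of that size are therefore given below relative to the median as well.

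**Figure D2:**
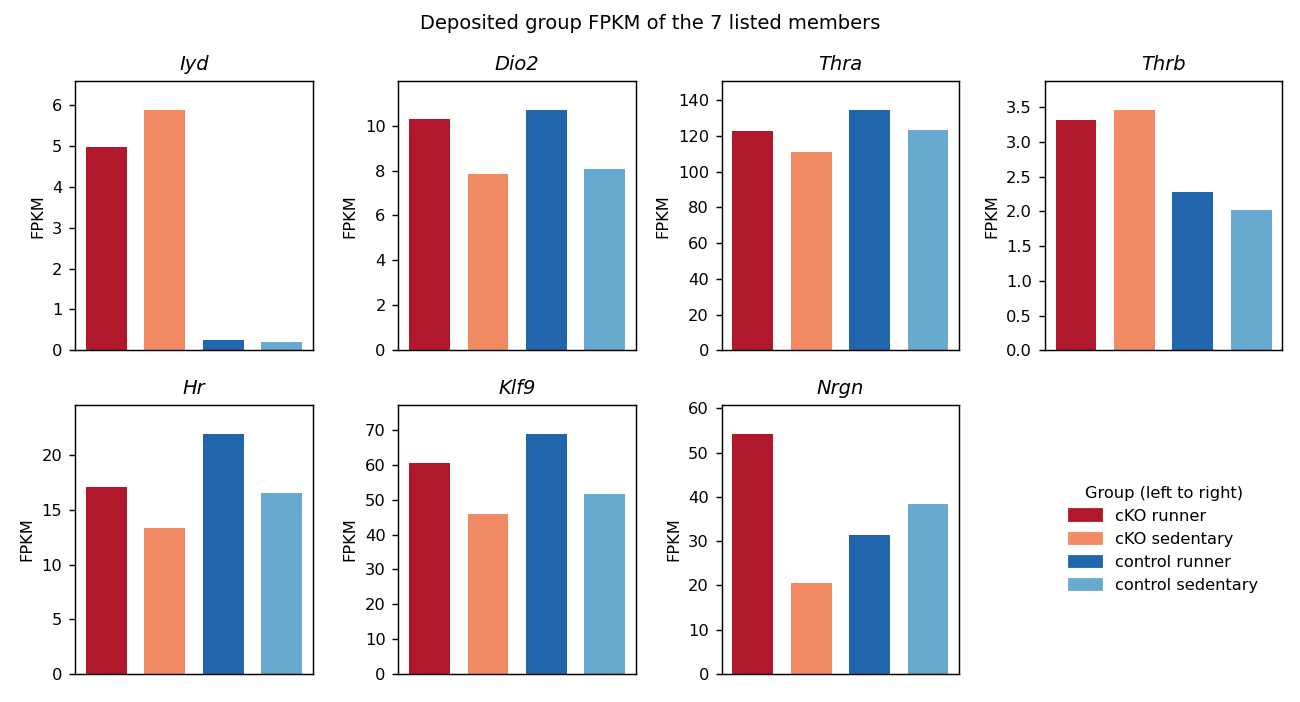
Deposited FPKM of the 7 listed members, 1 bar per group (cKO runner, cKO sedentary, control runner, control sedentary from left to right), each panel on its own axis from 0 and without error bars because each group has 1 value. Dio2, Hr and Klf9 are higher in runners of both genotypes, Iyd and Thrb are higher in both cKO groups, and Nrgn is highest in cKO runners at 54.3 FPKM and lowest in cKO sedentary mice at 20.6 FPKM.

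Hormone activation and iodide salvage were represented by Dio2 and Iyd, which followed different axes of the study. Dio2 had 10.3 FPKM in cKO runners, 7.83 in cKO sedentary mice, 10.7 in control runners and 8.08 in control sedentary mice. Both runner groups were above both sedentary groups, whatever the genotype. In the authors' deposited tables Dio2 rose with running by a log2 fold change of 0.39 in the cKO (1.31-fold) and 0.40 in the control (1.32-fold). The standard error (SE) of each, from the fold change and the deposited statistic, was 0.11. Neither genotype table listed Dio2, and the ratio of its cKO to its control value was -0.04 log2 in sedentary mice and -0.06 in runners, with no test. Dio2 is expressed in astrocytes in rodent brain, and the summed astrocyte and Bergmann glia markers stood at 1023 FPKM in cKO runners, 1165 in cKO sedentary mice, 975 in control runners and 989 in control sedentary mice (6 genes). In that list Gfap rose and Slc1a3 fell in both genotype comparisons, and the part of astrocyte RNA in the Dio2 values was not tested.

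Iyd encodes the deiodinase of iodotyrosines that recycles iodide in the thyroid gland. Iyd had 4.98 FPKM in cKO runners, 5.89 in cKO sedentary mice, 0.244 in control runners and 0.198 in control sedentary mice. It was near the bottom of the measured range in both control groups, so the size of its change rests on a low value. The authors' deposited tables gave a cKO over control log2 fold change of 4.89 in sedentary mice (SE 0.66) and 4.35 in runners (SE 0.59). On the log2(FPKM + 1) scale these were 2.52 and 2.27. Neither running table listed Iyd, and its group values differed by -0.24 log2 for running in the cKO and 0.30 in the control, with no test. Of the genes of hormone synthesis in the thyroid gland, Pax8 rose with Iyd in both genotype comparisons, by 2.91 and 3.02 log2 in the authors' deposited tables. The gland markers Tg, Tshr and Nkx2-1 were in no table, which does not show that they were at 0, and Slc5a5 stood only in a locus joined with another gene. Hindbrain and midbrain neuron markers were also higher in the cKO. Of these 13 markers, 9 rose in the sedentary cKO and 10 in cKO runners, and Slc6a2, the noradrenaline transporter, had 4.11 FPKM in cKO runners, 3.86 in cKO sedentary mice, 0.137 in control runners and 0.197 in control sedentary mice. The part of such tissue in the Iyd values was not tested.

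The receptor genes differed in level and in direction. Thra had 123 FPKM in cKO runners, 111 in cKO sedentary mice, 135 in control runners and 123 in control sedentary mice. Thrb had 3.32 FPKM in cKO runners, 3.46 in cKO sedentary mice, 2.27 in control runners and 2.02 in control sedentary mice. Thra was thus the far more abundant transcript on this length-scaled measure, and its 4 values lay within 1.21-fold of each other. In the authors' deposited tables Thra fell by 0.15 log2 in the sedentary cKO (SE 0.032) and by 0.13 in cKO runners (SE 0.027), less than the median gene: relative to the median these were 0.03 and 0.03, of the opposite sign. It rose with running by 0.15 log2 in the cKO (SE 0.031) and 0.13 in the control (SE 0.028). Nr1d1, which overlaps it, had 64.4 FPKM in cKO runners, 59.2 in cKO sedentary mice, 89.8 in control runners and 91.4 in control sedentary mice, and its part in the Thra values was not tested.

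Thrb moved the other way with genotype. The authors' deposited tables gave a cKO over control log2 fold change of 0.78 in sedentary mice (SE 0.18; 1.71-fold) and 0.54 in runners (SE 0.17; 1.46-fold), and relative to the median these were 0.96 and 0.70. Neither running table listed Thrb. Its group values differed by -0.06 log2 for running in the cKO and by 0.17 in the control, with no test. In rodent cerebellum Thrb is best known from Purkinje cells, whose 6 markers rose in both cKO comparisons, summing to 2383 FPKM in cKO runners, 3348 in cKO sedentary mice, 1619 in control runners and 1664 in control sedentary mice. The part of a higher share of Purkinje cell RNA was not tested.

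Hr and Klf9, which the hormone raises, rose with running in both genotypes. Hr encodes Hairless, a nuclear corepressor that binds thyroid hormone receptors and is also their target, and Klf9 encodes a zinc finger transcription factor. Hr had 17.1 FPKM in cKO runners, 13.4 in cKO sedentary mice, 22.0 in control runners and 16.6 in control sedentary mice. Klf9 had 60.5 FPKM in cKO runners, 45.8 in cKO sedentary mice, 68.9 in control runners and 51.7 in control sedentary mice. For both genes the order of the groups was control runner, cKO runner, control sedentary and cKO sedentary, as it also was for Dio2. In the authors' deposited tables Hr rose with running by 0.35 log2 in the cKO (SE 0.082) and 0.41 in the control (SE 0.080). Klf9 rose with running by 0.40 log2 in the cKO (SE 0.058) and 0.42 in the control (SE 0.045).

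The genotype differences of Klf9 were smaller than its running differences. Those of Hr were of similar size to its running differences, and smaller only relative to the median gene. The authors' deposited tables gave -0.31 log2 for Hr in the sedentary cKO (SE 0.11) and -0.36 in cKO runners (SE 0.044), and relative to the median gene -0.12 and -0.20. For Klf9 they gave -0.17 in the sedentary cKO (SE 0.048) and -0.19 in cKO runners (SE 0.056). Relative to the median, Klf9 stood at 0.01 in the sedentary cKO, a change of sign, and at -0.03 in cKO runners, so its genotype call depends on the scaling. Klf9 is also raised by glucocorticoids in rodents. Fkbp5, a co-chaperone gene and textbook glucocorticoid target picked after its values were seen, had 16.4 FPKM in cKO runners, 8.76 in cKO sedentary mice, 11.9 in control runners and 4.17 in control sedentary mice. The part of glucocorticoids in the Klf9, Hr and Dio2 values was not tested.

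**Figure D3:**
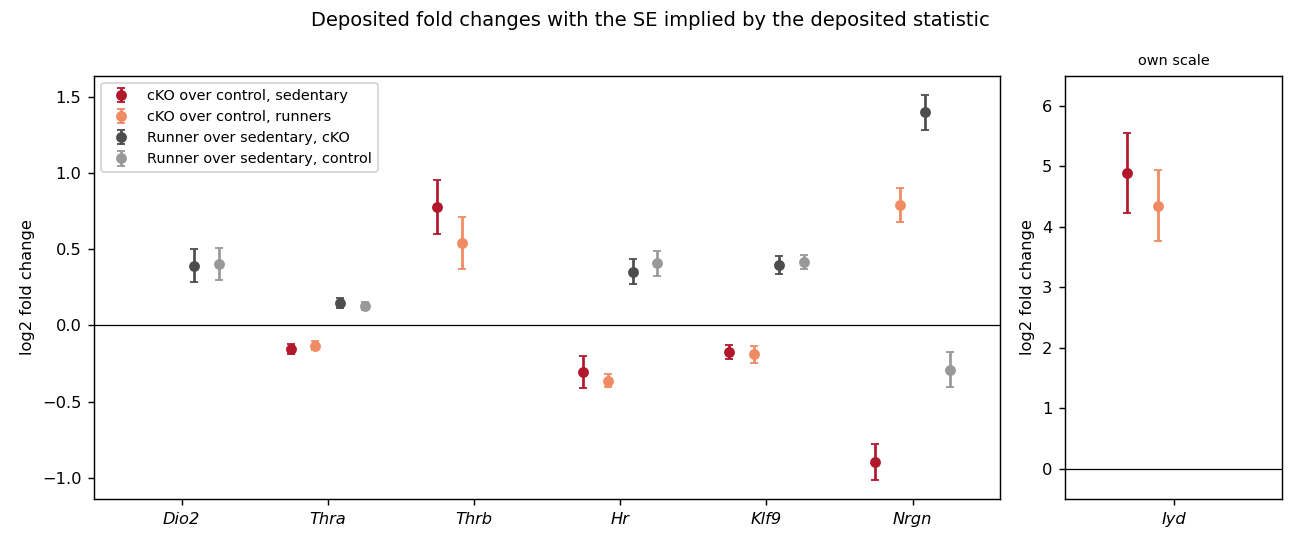
Deposited log2 fold changes of the listed members in the 4 comparisons, with bars of 1 standard error taken from the deposited statistic; Iyd is on its own axis and a missing point means that the table does not list the gene. The running changes of Dio2, Hr and Klf9 lie between 0.35 and 0.42 in both genotypes, and Nrgn has both signs.

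Nrgn was the member whose genotype difference changed sign with running. It encodes neurogranin, a postsynaptic protein that binds calmodulin and is abundant in forebrain neurons; in rodent cerebellum it marks Golgi cells. Nrgn had 54.3 FPKM in cKO runners, 20.6 in cKO sedentary mice, 31.4 in control runners and 38.3 in control sedentary mice. The highest and the lowest value were both in the cKO, 2.64-fold apart, and the control groups lay between them. In the authors' deposited tables Nrgn fell by 0.90 log2 in the sedentary cKO (SE 0.12) and rose by 0.79 in cKO runners (SE 0.11). It rose with running by 1.40 log2 in the cKO (SE 0.11) and fell by 0.29 in the control (SE 0.11; q = 0.00806).

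The difference between genotype effects was tested directly, since a call in 1 table and not in another shows no difference. A two-sided z test compared the 2 genotype fold changes of each of the 6751 genes that both tables list, with Benjamini-Hochberg adjustment, and it called 28.0% of them. The test rests on the authors' deposited fold changes and statistics, since 1 value per group allows no test over samples. Of the 6 members tested, Nrgn was called: from the authors' deposited tables, its cKO over control change was 1.69 log2 higher in runners than in sedentary mice (SE 0.16, adjusted p = 1.63e-24). Of the 6642 genes called in both genotype comparisons, 122 were lower in the sedentary cKO and higher in cKO runners, and Nrgn ranked 1 of these by the smaller of its changes. The other members did not pass. For Thra the difference was 0.02 log2 (95% interval -0.06 to 0.10), for Klf9 -0.02 (-0.16 to 0.13) and for Hr -0.06 (-0.28 to 0.17). The intervals were wider for Thrb, at -0.23 (-0.72 to 0.25), and for Iyd, at -0.54 (-2.28 to 1.202), so differences of that size could not be told from none. For Dio2, which only the running tables list, the running effect in the cKO minus that in the control was -0.01 log2 (95% interval -0.31 to 0.29).

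**Figure D4:**
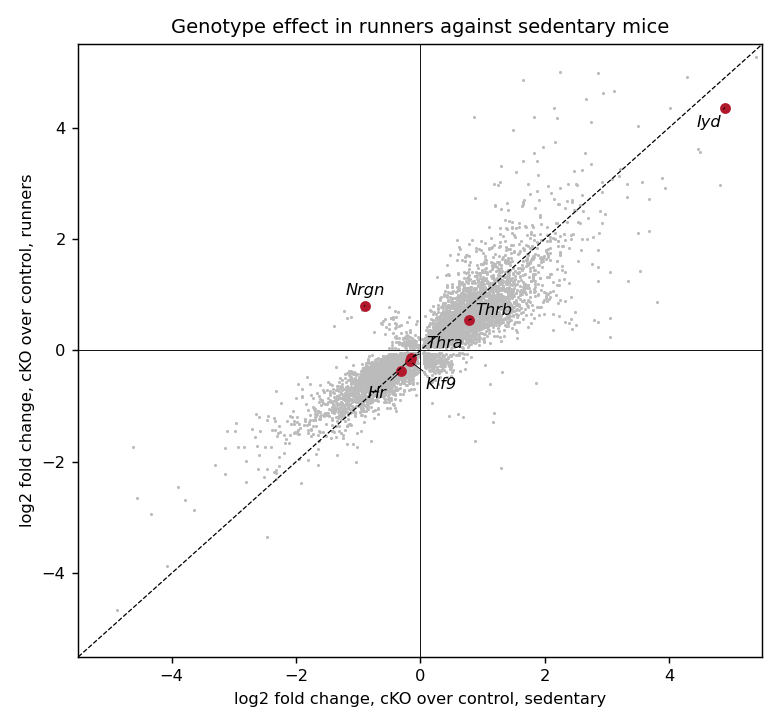
Log2 fold change of cKO over control in sedentary mice (horizontal) and in runners (vertical) for the 6751 genes that both tables list with a finite value (grey; 4 lie beyond the axes), with 6 members in red and a dashed line of equal effect. Thra, Hr, Klf9, Thrb and Iyd lie near the line, and Nrgn stands in the upper left, at -0.90 and 0.79.

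Markers of cells that hold neurogranin were set beside it. The 5 Golgi cell markers summed to 362 FPKM in cKO runners, 470 in cKO sedentary mice, 320 in control runners and 291 in control sedentary mice, an order that differs from that of Nrgn. Without Gad1, which other inhibitory neurons share, none of the remaining Golgi markers exceeded 25.8 FPKM, and Grm2 had 6.42 FPKM in cKO runners, 6.53 in cKO sedentary mice, 9.05 in control runners and 8.65 in control sedentary mice. The forebrain neuron markers Emx1 and Tbr1 were in no table, and Neurod6 had 1.92 FPKM in cKO runners, 3.10 in cKO sedentary mice and 2.05 in control sedentary mice, with no value for control runners. Lhx2, another, had 1.71 FPKM in cKO runners and 1.08 in control runners, with no value for control sedentary mice. In the authors' deposited tables Lhx2 rose by 0.67 log2 in cKO runners (q = 0.0096) and by 0.77 with running in the cKO (q = 0.00447). Neurod6 went the other way with running in the cKO, at -0.69 log2 (q = 0.000475). It rose by 0.60 log2 in the sedentary cKO (q = 0.00132), where Nrgn fell. The genes whose pattern over the 4 groups was most like that of Nrgn, by the distance between log2 profiles centred on their own mean, were the potassium channel interacting protein gene Kcnip2 (0.332), Fam163b (0.348) and the AMPA receptor auxiliary gene Cnih3 (0.370). Kcnip2 had 6.74 FPKM in cKO runners, 3.25 in cKO sedentary mice, 4.48 in control runners and 4.52 in control sedentary mice. The hindbrain and midbrain marker list was higher in the cKO in both activities, with 9 genes higher in the sedentary cKO, where Nrgn was lower. A pair of genes of neurons outside the cerebellar cortex was picked after the values were seen. Slc17a6, the vesicular glutamate transporter gene of brainstem, thalamic and deep nuclear neurons, had 47.6 FPKM in cKO runners, 31.2 in cKO sedentary mice, 27.1 in control runners and 30.9 in control sedentary mice. Tcf7l2, a transcription factor gene of the Wnt pathway prominent in thalamus and midbrain, had 24.0 FPKM in cKO runners, 8.01 in cKO sedentary mice, 17.8 in control runners and 20.99 in control sedentary mice. The part of tissue outside the cerebellar cortex in the Nrgn values was not tested.

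Closer matches existed for the other members except Iyd among 5675 candidate genes (5676 for Iyd), as far as 4 groups can show. Cyfip2 lay nearest to Thra (0.0133), Ajap1 to Thrb (0.0243), Add2 to Hr (0.0192), Hip1 to Klf9 (0.0310) and Mnt to Dio2 (0.0600). The distances of the next 2 genes for each were 0.0297 to 0.0779. For Iyd the nearest was Dlk1, at a distance of 1.89, so no gene at 1 FPKM or more in every group had a pattern close to it. Iyd itself was below 1 FPKM in the control groups, and genes as low as that were not candidates. Each distance rests on 4 group values and is a description only.

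Other genes of the pathway were taken from lists of transporters, deiodination genes, receptors and coregulators, and genes that the hormone raises or lowers in rodent brain. Of the 8 hormone transport genes 7 were listed. In the sedentary cKO 3 rose (Slc7a5 and Ttr among them) and 2 fell (Slco1a4 and Slc7a8). The median was 0.41 log2 over 6 genes, against -0.18 over the 6313 genes at 1 FPKM or more in every group. In cKO runners 4 rose and 2 fell, with a median of 0.23 against -0.16. Over all listed genes 38.4% were higher and 44.2% lower in the sedentary cKO, and 32.2% and 36.2% in cKO runners. The tables list little but called genes, so the counts of this and the next lists cannot show genes that were not called. Slc7a5, the large amino acid transporter gene, rose by 0.79 and 0.49 log2, and Slc7a8, a related transporter gene, fell by 0.47 and by 0.52, in the authors' deposited tables.

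Ttr, which encodes the carrier transthyretin made by choroid plexus, had 610 FPKM in cKO runners, 640 in cKO sedentary mice, 518 in control runners and 77.7 in control sedentary mice. It is a choroid plexus marker, and Kl, another, had 11.7 FPKM in cKO runners, 12.8 in cKO sedentary mice, 8.01 in control runners and 1.84 in control sedentary mice, also low in control sedentary mice. The part of choroid plexus in the Ttr values was not tested. Of the 4 deiodination genes other than members, Dio1 and Dio3 were in no table, nor was Sepsecs, and Secisbp2, which encodes a selenoprotein synthesis factor, fell by 0.44 log2 in the sedentary cKO and by 0.18 in cKO runners (q = 0.0199) in the authors' deposited tables, which relative to the median were -0.26 and -0.02.

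Among 15 receptor partners and coregulators, 13 were listed under their own symbol. In the sedentary cKO 6 rose and 4 fell (median 0.24 log2 over 11 genes), and in cKO runners 3 rose and 4 fell (median -0.10 over 8 genes). Over all listed genes 38.4% were higher and 44.2% lower in the sedentary cKO, and 32.2% and 36.2% in cKO runners. With running, 9 rose and 2 fell in the control (median 0.26 over 11 genes, against 0.01 over the same 6313 genes). In the cKO 2 rose and 2 fell with running (median 0.03 over 7 genes). Of all listed genes 22.1% were higher and 18.4% lower with running in the control, and 17.7% and 13.8% in the cKO. Rxra, a retinoid X receptor that pairs with thyroid hormone receptors, had 7.13 FPKM in cKO runners, 6.98 in cKO sedentary mice, 4.28 in control runners and 2.82 in control sedentary mice. It rose by 1.31 log2 in the sedentary cKO and 0.74 in cKO runners in the authors' deposited tables. Ncor1, a corepressor gene, had deposited log2 fold changes of -0.06 in the sedentary cKO (q = 0.0277) and -0.32 in cKO runners in the authors' deposited tables; relative to the median these were 0.13, of the opposite sign, and -0.17.

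Genes that the hormone raises in rodent brain split in both directions. Of the 24 besides Hr, Klf9 and Nrgn, 21 were listed under their own symbol. In the sedentary cKO 11 rose and 9 fell (median 0.41 log2 over 20 genes), and in cKO runners 9 rose and 10 fell (median -0.06). With running 9 rose and 6 fell in the cKO (median 0.16), and 9 rose and 4 fell in the control (median 0.12 over 19 genes). The medians over the 6313 genes were -0.18, -0.16, 0.05 and 0.01 in the same order. Of all listed genes 38.4%, 32.2%, 17.7% and 22.1% were higher, and 44.2%, 36.2%, 13.8% and 18.4% lower. Those lower in the cKO included Ntf3, encoding neurotrophin 3, Camk4, encoding a calcium and calmodulin dependent kinase of granule cells, and Reln, encoding the secreted guidance protein reelin. Camk4 had 26.7 FPKM in cKO runners, 22.6 in cKO sedentary mice, 67.8 in control runners and 50.6 in control sedentary mice, with deposited log2 fold changes of -1.16 in sedentary mice and -1.34 in runners. Those higher in the cKO included the Purkinje cell genes Itpr1, Pcp2 and Calb1 and the interferon-induced Gbp3. Gbp3 had 6.41 FPKM in cKO runners, 4.49 in cKO sedentary mice, 1.78 in control runners and 1.87 in control sedentary mice. Granule neuron markers fell and Purkinje cell markers rose in both genotype comparisons, and their part in this split was not tested.

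Genes that the hormone lowers included more called higher than lower in the cKO. Of the 9 besides Dio2, 7 were listed under their own symbol, of which 6 rose and 1 fell in the sedentary cKO (median 0.66 log2) and 3 rose and 1 fell in cKO runners (median 0.53 over 4 genes). Over all genes 38.4% were higher in the sedentary cKO and 32.2% in cKO runners, and a list read from tables of called genes cannot show those that were not called. Ncam1, a neural adhesion molecule gene, rose by 0.66 log2 in the sedentary cKO and 0.41 in cKO runners, and Mamdc2 by 1.15 and 0.65, in the authors' deposited tables. Tnc, the tenascin C gene, fell by 0.88 in sedentary mice and by 0.60 in runners in these tables. With running in the cKO 3 fell (Trh, Agbl3 and Mamdc2), beside 13.8% of all listed genes. With running in the control 1 rose (Ncam1), beside 22.1% of all listed genes. Of the 11 genes of hormone synthesis in the thyroid gland besides Iyd, Pax8 alone was listed under its own symbol, with 0.913 FPKM in cKO runners, 0.808 in cKO sedentary mice, 0.113 in control runners and 0.107 in control sedentary mice. Pax8, a transcription factor gene also expressed in hindbrain neurons, rose by 2.91 log2 in the sedentary cKO and 3.02 in cKO runners (q = 0.000324) in the authors' deposited tables.

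**Figure D5:**
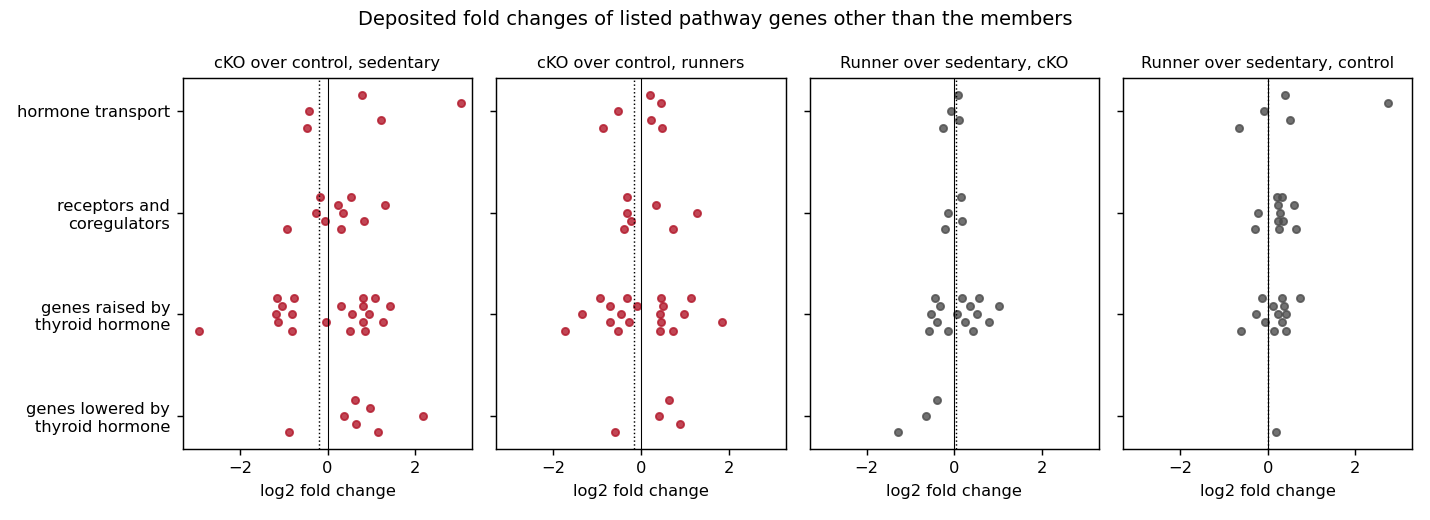
Deposited log2 fold changes of pathway genes other than the 8 members in the 4 comparisons, 1 point per gene that the table lists under its own symbol, spread vertically for legibility. The solid line marks 0 and the dotted line the median of the 6313 genes at 1 FPKM or more in every group. Genes raised by the hormone lie on both sides of 0 in both genotype panels, and the transport gene at the right of the first and the last panel is Ttr, at 3.04 and 2.74.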

How the data were processed

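Per the labels, polyadenylated RNA from pools of 3 cerebella was read from both ends, 100 bases each. Cufflinks 2.1.1, Cuffdiff, TopHat, TopHat2 2.0.8b and the build mm10 stand in the submitters' processing notes, without the role of each. Per the file headers the 4 tables are Cuffdiff output with 1 deposited FPKM per group, a log2 fold change, a test statistic used here as a score, and the authors' p-value and q-value. All 13151 FPKM values that stand in more than 1 table were identical. Depth is unknown, and single libraries were not analysed here. Per the file headers fold changes run second group over first; those deposited as control over cKO or sedentary over runner were turned round here.

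Symbols in a locus were split at commas, and loci joining several symbols were kept out of list counts. Percentages of genes called refer to the 11763 genes listed anywhere, since no source used here gives the number tested. The standard error of a fold change is its size divided by the statistic. Over genes above the smallest p, the statistic was a median 0.72 times the normal quantile of its p, so these errors are wide for the deposited p. The z test of the difference between genotype effects was tested on simulated data. These were drawn with the same normal errors that the test assumes, so they cannot show whether those errors hold here. The members, lists and tests were chosen with earlier results of these data known. Genes were named by rule: the 8 members, up to 4 genes per pathway list and comparison by smallest q and then size of change, and the 3 nearest patterns per member; cell type markers set beside a member were named too, and Reln, Fkbp5, Slc17a6, Tcf7l2, Zbtb16, Per1, Sgk1, Cdkn1a and genes named to complete a small count fall outside it. Some genes that the rule selects are not reported here. Alternatives for the counts and fold changes were a q of 0.01, a 1.5-fold minimum, an FPKM minimum of 1, pseudocounts of 1 and 0.1, and median centring. Calculations used Python 3.11.15 with pandas 2.3.3, numpy 2.4.6, scipy 1.17.1 and matplotlib 3.10.9.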

Additional observations from a re-analysis of the deposited data

Results flagged for a closer look

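The z test on the authors' deposited statistics, of the difference between genotype effects and adjusted over 6751 genes, called Nrgn among the members, with a cKO over control change of 0.79 log2 in runners and -0.90 in sedentary mice, a difference of 1.69 (adjusted p = 1.63e-24). The same test called 12 other pathway genes named here, beside 28.0% of all genes tested. Differences are given as the cKO over control log2 fold change in runners minus that in sedentary mice. Genes higher in the cKO in both were further from 0 in runners for Nefh, a neurofilament gene (0.33), and the Purkinje cell gene Pcp2 (0.17). They were nearer to 0 in runners for Ttr (-2.80), the Purkinje cell genes Itpr1 (-0.92) and Calb1 (-0.40), Rxra (-0.57), Slc7a5 (-0.30) and Ncam1 (-0.24). Of genes lower in the cKO in both, Bdnf, the brain-derived neurotrophic factor gene, was nearer to 0 in runners (0.66), and Ncor1 (-0.27) and Camk4 (-0.18) were further from 0. Homer1, a postsynaptic scaffold gene, was lower in cKO runners (-0.28) and higher in the sedentary cKO (0.31), a difference of -0.59. Choroid plexus markers other than Ttr, such as Kl, were also low in control sedentary mice, and Purkinje cell markers fell with running in the cKO. The part of choroid plexus or of Purkinje cell RNA in these differences was not tested.

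For genes that both running tables list, the running effect in the cKO minus that in the control was tested in the same way over 2078 genes. It was -0.81 log2 for Rora, a nuclear receptor gene of Purkinje cells, -0.49 for the coactivator gene Ncoa1, -0.35 for the coactivator gene Ncoa2, and 0.18 for Slc3a2, which encodes the heavy chain partner of amino acid transporters.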

How the results depend on the processing

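With 1 deposited value per group, no library could be left out, and no paired analysis was possible because the tables hold no value for single libraries. The counts depend most on a minimum size of change, which the running effects of Thra, Hr, Klf9 and Dio2 do not reach. Of 6, 6, 5 and 5 members called (cKO over control in sedentary mice and in runners, then running in the cKO and in the control), 3, 2, 1 and 0 remained at 1.5-fold or more. By Cuffdiff that last 0 stands beside 5 members at an unadjusted p under 0.05. The log2(FPKM + 0.1) scale gave 3, 2, 1 and 0, and the log2(FPKM + 1) scale 2, 2, 1 and 0. Of 44, 38, 27 and 30 other pathway genes called, 29, 16, 4 and 6 passed 1.5-fold, 29, 16, 4 and 5 did so on the log2(FPKM + 0.1) scale and 26, 12, 1 and 5 on the log2(FPKM + 1) scale. Centring on the median gene turned 3 fold changes of members round, to 0.031 for Thra in the sedentary cKO, 0.026 for Thra in cKO runners and 0.0099 for Klf9 in the sedentary cKO. The other 63 recomputed member fold changes kept their direction, and 28 other recomputed counts stayed within 1.5 times the reported ones. For the difference of genotype effects, Nrgn was the only member called under each of 4 alternatives. These were the 2 running tables, a difference above 1.5-fold, Bonferroni adjustment and an FPKM of at least 1 in every group. The running tables hold the same contrast of the 4 group values, so their agreement was fixed in advance. Neither running table lists Thrb or Iyd, and the FPKM minimum leaves out Iyd, so they could not be called there.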

Other observations

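Some textbook glucocorticoid-responsive genes were picked after their values were seen, so their direction was known beforehand. They were higher in runners of both genotypes. Zbtb16, a zinc finger transcription factor gene, had 6.60 FPKM in cKO runners, 3.55 in cKO sedentary mice, 6.33 in control runners and 0.597 in control sedentary mice. Per1, a clock gene, had 21.2 FPKM in cKO runners, 10.96 in cKO sedentary mice, 18.2 in control runners and 10.3 in control sedentary mice. Sgk1, a kinase gene, had 95.3 FPKM in cKO runners, 36.4 in cKO sedentary mice, 63.0 in control runners and 41.4 in control sedentary mice. Cdkn1a, the p21 cell cycle inhibitor gene, had 21.5 FPKM in cKO runners, 10.9 in cKO sedentary mice, 13.9 in control runners and 7.22 in control sedentary mice. The genes were not chosen by rule, so no share can be read from them.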
